A study of Mus musculus with 4 samples.

Results

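The genes described here encode the enzymes and cofactors that remove the cap from mRNA, digest the decapped message, and shorten poly(A) tails outside the CCR4-NOT complex. They are 10 genes, chosen by symbol for these functions out of 23309 gene symbols measured, and all 10 were found on 1 row each. mRNA was sequenced in 4 libraries from oocytes of ICR mice, each from a lysate of 60 cells taken from females 21 to 23 days old. The libraries are labelled Erk-/- MII, WT MII, Erk-/- GV and WT GV, with 1 library per group. GV oocytes hold an intact germinal vesicle and are arrested before meiosis resumes, and MII oocytes are mature eggs at metaphase of the second meiotic division. Erk-/- stands for deletion of ERK, a MAP kinase active during meiotic maturation, and the series concerns the loss of stored maternal mRNA without it. The labels name PMSG and hCG for hormone treatment without tying either to a library, and they name Btg4-/- rather than Erk-/- females in the treatment text. They do not say which exons were removed or what drove the deletion.

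A poly(A) tail and a cap protect an mRNA from exonucleases. PAN2-PAN3 trims long tails and CCR4-NOT continues, after which the LSM1-containing ring binds the shortened end and DCP2, with DCP1 and the EDC proteins, cleaves off the cap. XRN1 then digests the body of the message. Fully grown mouse oocytes store mRNA with little turnover and make almost no new transcripts, and much of the store is degraded during maturation. Dcp1a and Dcp2 are known in mouse as dormant maternal messages whose translation starts at maturation, and PARN is known as a deadenylase of maternal mRNA in Xenopus oocytes. Recruitment of dormant mRNA is known to act through the cytoplasmic polyadenylation element (CPE), which is bound by CPEB near the end of the 3′ UTR.

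The ends of the 3′ UTRs are shown first, for the 4 members called higher in WT MII than in WT GV. The end of Parn, the 1 called lower, is shown as well. These calls need a 2-fold ratio after 1 FPKM is added to each level, as described below. By FPKM alone Lsm1 also passed 2-fold in WT, with 7.17 FPKM at MII and 3.32 FPKM at GV (2.16-fold). With the added 1 FPKM its log2 ratio was 0.92, so it was not called. Of the 4 members called higher, Dcp1a, Pan2 and Pan3 hold a CPE near the transcript end. The share holding such a CPE was not counted among all genes called higher. Edc4 has none in its 3′ UTR, and neither has Parn. Lsm1, not shown, holds no whole CPE in its last 100 bases. The sequences are from GENCODE transcripts on build GRCm38, 1 transcript per gene, in the direction of the mRNA with T for U. Capitals mark the CPE nearest to the annotated end in Dcp1a, Pan2 and Pan3, and the last poly(A) signal in Edc4 and Parn.
Dcp1a, chr14:30527010-30527039, + strand: caaatatatttTTTTAATaaaatttcaaaa
Pan2, chr10:128321324-128321353, + strand: aaataaaagtatTTTTATctcattagaaaa
Pan3, chr5:147548460-147548489, + strand: atagcagtattTTTTAATaaagaattgcag
Edc4, chr8:105893179-105893208, + strand: tgcaattaaaggcttttggAATAAAagaaa
Parn, chr16:13537963-13537992, - strand: caaaaagctgaaATTAAAgaaaatttccta

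The CPE was searched as TTTTAT and TTTTAAT and the poly(A) signal as AATAAA and ATTAAA, on the mRNA strand only. In Dcp1a and Pan3 the last 3 letters of the CPE are also the first 3 letters of an AATAAA. Dcp1a had 7 CPEs in a 3′ UTR of 3757 bases, 2 of them within the last 100 bases, and Pan3 had 5 in 2115 bases with 1 in the last 100. Pan2 had 3 in a 3′ UTR of 588 bases, and all 3 lay in the last 100, ending 66, 31 and 12 bases before the annotated end. Edc4 (346 bases) and Parn (890 bases) had none anywhere in the 3′ UTR. The last CPE of Lsm1 ended 97 bases before the end but started outside the last 100. That of Xrn1 ended 106 bases before the end, wholly outside them, and those of Dcp2, Dcp1b and Edc3 lay farther upstream. A CPE in the last 100 bases was thus found in 3 of 10 members, against 17.9% of 19564 mouse genes with a 3′ UTR of at least 100 bases. A poly(A) signal was found there in 9 of 10 members, against 78.6% of genes. A match in the letters is not a bound site, other annotated ends exist for these genes, and the part of the CPEs in the levels below was not tested.

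**Figure D1:**
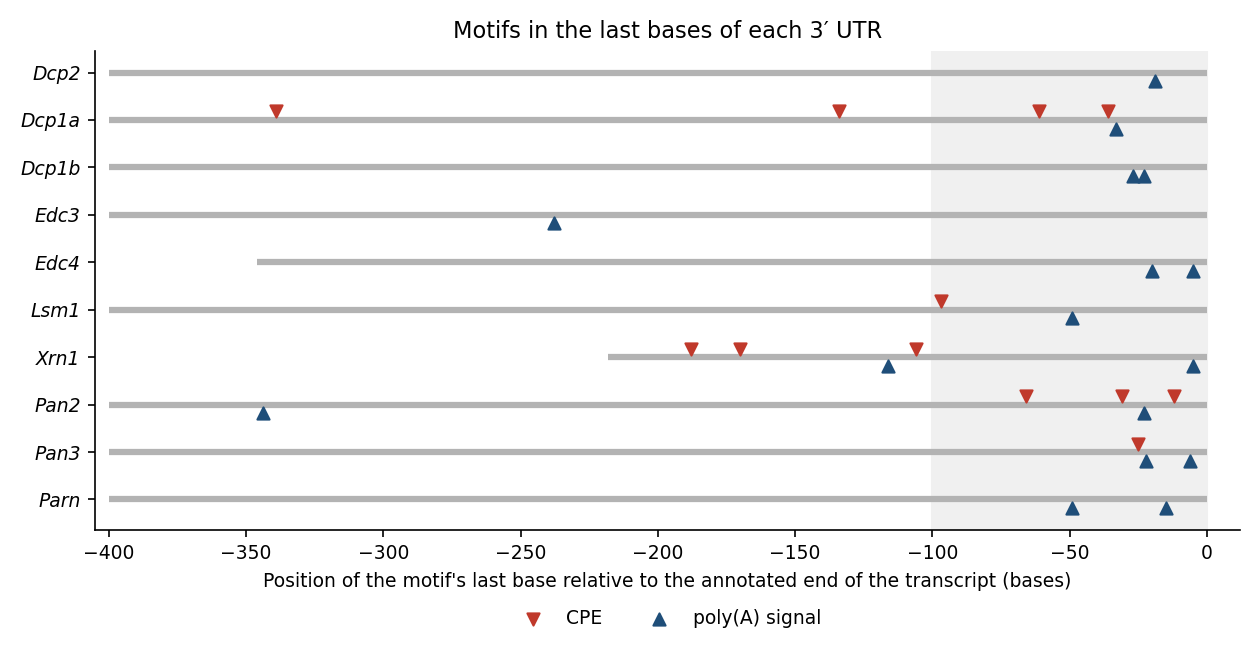
CPEs (downward triangles) and poly(A) signals (upward triangles) near the end of the 3′ UTR of each member, with the position of each motif's last base in bases from the annotated transcript end. The shaded last 100 bases hold whole CPEs in Dcp1a, Pan2 and Pan3. The grey lines show each 3′ UTR within the plotted range and are cut there for longer ones. The Lsm1 triangle at 97 bases marks a motif that starts outside the shaded window.

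The deposited unit is FPKM, a fragment count scaled by the authors to message length and library size, with a lower and an upper bound per gene. With 1 library per group no comparison can be tested, the bounds say nothing of how animals or collections vary, and the read depth is unknown. Summed FPKM ran between 401160 and 453226. Ratios are log2((FPKM + 1)/(FPKM + 1)), which understates changes of low genes, and at least 2-fold on this scale is called higher or lower as a rule of size. FPKM is a share of each library, so less of a message per oocyte and more of other messages cannot be told apart. In the same way, a higher FPKM can mean more of a message per oocyte or less of other messages. Higher and lower below thus refer to the share. Mapk3, which encodes ERK1, had 52.3 FPKM in Erk-/- GV, against 333 FPKM in WT GV. At MII it had 34.3 FPKM in the library labelled Erk-/-, against 25.7 FPKM in WT. Mapk3 thus does not go with the label at MII, so the mature library is named by its label only. All 10 oocyte markers examined, among them Zp3 and Gdf9, were above 10 FPKM in every library. Of 12 granulosa and cumulus cell markers, 2 to 5 were above 0 and their sum was 12.5 to 22.6 FPKM, most of it from Cyp19a1 and Inha. Cyp19a1 had 10.8 FPKM in the MII library labelled Erk-/- and 21.8 FPKM in WT MII. At GV it was listed at 0 in Erk-/-, against 15.5 FPKM in WT. Inha had 11.3 FPKM in Erk-/- GV and 3.80 FPKM in WT GV. Amh, Foxl2, Fshr, Inhba, Tnfaip6 and Ptx3 were listed at 0 in all 4 libraries. Of 7 blood and stroma markers, Pecam1 (25.6 to 64.3 FPKM) was above 0 and the rest were listed at 0.

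The largest change among these genes was in Dcp1a, the activating partner of the decapping enzyme (mm9 chromosome 14, 31292751 to 31340242). It had 513 FPKM in the MII library labelled Erk-/- and 938 FPKM in WT MII, against 138 FPKM in Erk-/- GV and 96.0 FPKM in WT GV. Both MII values lie far above both GV values, and they stand slightly above the authors' own upper bounds, which are therefore not quoted for them. MII over GV was 3.73-fold in the libraries labelled Erk-/- (log2 ratio 1.89) and 9.77-fold in WT (3.27). By FPKM, Dcp1a ranked 105 in the MII library labelled Erk-/- and 49 in WT MII, against 574 in Erk-/- GV and 899 in WT GV. In WT it was thus among the most abundant messages of the mature egg. The genotypes lay in opposite order at the 2 stages. At MII the library labelled Erk-/- had 54.7% of the WT level, and at GV Erk-/- had 143% of it. The Dcp1a locus overlaps that of Cacna1d, a calcium channel gene at no more than 3.09 FPKM in any library.

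Dcp2, which encodes the decapping enzyme itself (chromosome 18, 44540154 to 44584623), was far less abundant. Its level was 8.24 FPKM in the MII library labelled Erk-/- and 7.66 FPKM in WT MII, against 2.86 FPKM in Erk-/- GV and 7.42 FPKM in WT GV. The Erk-/- GV library is the low one, with bounds of 2.46 to 3.26, and the bounds of the other 3 libraries overlap. MII over GV was therefore 2.88-fold in the libraries labelled Erk-/- (log2 ratio 1.26), while in WT the log2 ratio was 0.04. Within each library, the Dcp1a level was 62.3 times that of Dcp2 in the MII library labelled Erk-/- and 122 times in WT MII, against 48.1 in Erk-/- GV and 12.9 in WT GV. Dcp1b, the second DCP1 gene of mammals (chromosome 6, 119125271 to 119171632), was listed at 0 in all 4 libraries. The Dcp1b locus overlaps that of Cacna1c by 21157 bases. Cacna1c had 0.0896 FPKM in the MII library labelled Erk-/- and was listed at 0 in WT MII, Erk-/- GV and WT GV. Whether the overlap affects the Dcp1b values was not tested.

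Of the enhancers of decapping, Edc4 was abundant and Edc3 was barely listed. Edc4 (chromosome 8, 108404851 to 108417107) encodes the scaffold that joins DCP1 and DCP2 in animals. It had 106 FPKM in the MII library labelled Erk-/- and 182 FPKM in WT MII, against 71.5 FPKM in Erk-/- GV and 87.9 FPKM in WT GV. Both MII values lay above both GV values with bounds apart, and WT MII was the highest, its value just above its own upper bound. The ratio of MII to GV passed 2-fold in WT (log2 1.04) and not in the libraries labelled Erk-/- (0.56). Edc3 (chromosome 9, 57556376 to 57597969) was listed at 0.773 FPKM in WT GV, with bounds of 0.488 to 1.03, and at 0 in the remaining libraries.

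Lsm1 and Xrn1 act on either side of decapping, and both were low and crossed over between the genotypes. Lsm1 (chromosome 8, 26896063 to 26914447) encodes the subunit that marks the cytoplasmic LSm ring. It had 3.63 FPKM in the MII library labelled Erk-/- and 7.17 FPKM in WT MII, against 5.60 FPKM in Erk-/- GV and 3.32 FPKM in WT GV. MII over GV gave a log2 ratio of -0.51 in the libraries labelled Erk-/-, where the bounds overlap, and 0.92 in WT, where they do not. Xrn1, the cytoplasmic 5′-3′ exonuclease gene (chromosome 9, 95855179 to 95953448), had 2.59 FPKM in the MII library labelled Erk-/- and 2.86 FPKM in WT MII, against 4.77 FPKM in Erk-/- GV and 1.80 FPKM in WT GV. Its MII levels overlap in their bounds, and its Erk-/- GV level is the highest of the 4. The corresponding log2 ratios of MII to GV were -0.68 in the libraries labelled Erk-/- and 0.46 in WT. Genes of this expression often differed between the GV libraries. When the 9990 genes averaging 1 FPKM or more were ordered by mean, the Erk-/- and WT GV levels of 95% of the 2498 lowest, Xrn1 among them, lay within 3.50 log2 units, and those of 95% of the next 2497, Lsm1 among them, within 4.23.

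**Figure D2:**
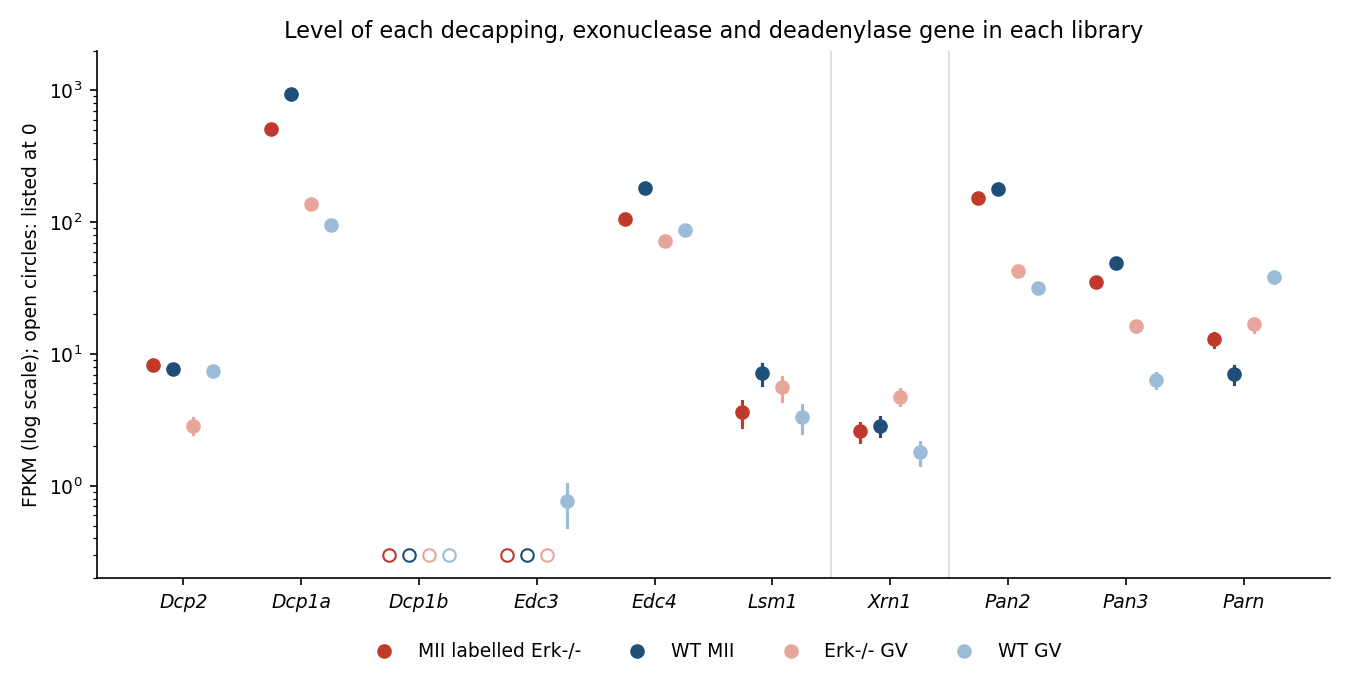
FPKM of each member on a log scale in the 4 libraries, from left to right MII labelled Erk-/-, WT MII, Erk-/- GV and WT GV, with the authors' bounds as vertical bars and genes listed at 0 as open circles. Dcp1a, Edc4, Pan2 and Pan3 stand higher in both MII libraries than in both GV libraries with bounds apart, Dcp2 does so with overlapping bounds, and Parn stands lower in both.

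The catalytic and adaptor genes of the PAN2-PAN3 deadenylase were both higher at MII in both genotypes. Pan2, the exonuclease subunit (chromosome 10, 127740391 to 127758414), had 152 FPKM (bounds 149 to 158) in the MII library labelled Erk-/- and 177 FPKM (175 to 184) in WT MII. Its GV levels were 42.5 FPKM (40.0 to 45.2) in Erk-/- and 31.7 FPKM (29.7 to 33.7) in WT. All 4 intervals are apart, and MII stands above GV in both genotypes, by 3.57-fold in the libraries labelled Erk-/- and 5.60-fold in WT. Pan3, whose protein brings PAN2 to poly(A)-bound mRNA (chromosome 5, 148242156 to 148360077), had 35.5 FPKM (32.8 to 37.1) in the MII library labelled Erk-/- and 48.8 FPKM (45.4 to 50.5) in WT MII. At GV it had 16.2 FPKM (14.6 to 17.8) in Erk-/- and 6.35 FPKM (5.54 to 7.13) in WT. MII over GV was 2.18-fold in the libraries labelled Erk-/- and 7.67-fold in WT. The gap comes in part from a GV level 2.56-fold higher in Erk-/- than in WT. Pan2 stood above Pan3 in each library, by 4.28 times in the MII library labelled Erk-/- and 3.64 times in WT MII, against 2.62 times in Erk-/- GV and 4.99 times in WT GV.

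Parn, the cap-stimulated poly(A)-specific ribonuclease gene (chromosome 16, 13538057 to 13668263), was the only member at least 2-fold lower at MII, and this was so in WT. It had 13.1 FPKM (11.3 to 14.4) in the MII library labelled Erk-/- and 7.04 FPKM (5.89 to 8.14) in WT MII. The GV levels were 17.0 FPKM (14.6 to 18.6) in Erk-/- and 38.5 FPKM (34.5 to 40.4) in WT. WT GV is the high library and WT MII the low one, with both libraries labelled Erk-/- between them. The log2 ratio of MII to GV was -0.35 in the libraries labelled Erk-/- and -2.30 in WT, where MII held 18.3% of the GV level. Within a library the Pan2 level was 11.6 times that of Parn in the MII library labelled Erk-/- and 25.2 times in WT MII, against 2.51 times in Erk-/- GV and 0.823 times in WT GV. Parn thus exceeded Pan2 in WT GV alone.

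Dcp1b and Edc3 had a mean under 1 FPKM, which leaves 8 of the 10 members among the 9990 genes over which ratios were counted. In the libraries labelled Erk-/-, 4 of 8 members were higher at MII than at GV (Dcp1a, Pan2, Dcp2 and Pan3) and none lower, where 22.9% of all genes were higher and 35.6% lower. In WT, 4 of 8 were higher (Dcp1a, Pan3, Pan2 and Edc4) and 1 lower (Parn), where 20.6% of all genes were higher and 49.6% lower. The median log2 ratio of the 8 members was 0.82 in the libraries labelled Erk-/- and 0.98 in WT, beside -0.26 and -0.97 over all genes. Of the 2498 most abundant genes, those with a mean of at least 32.5 FPKM, 98.04% had a WT ratio no higher than that of Dcp1a and 93.8% one no higher than that of Pan2. For Edc4 the share was 72.3%. In the libraries labelled Erk-/- the corresponding shares were 91.3% for Dcp1a, 90.1% for Pan2 and 63.3% for Edc4. Between the GV libraries 95% of these abundant genes differed by less than 1.69 log2 units. That distance compares genotypes at 1 stage and is not a spread between replicates. Over all 9990 genes, ratios of MII to GV had quartiles of -2.69 and 0.65 in WT. The quartiles were -1.60 and 0.87 in the libraries labelled Erk-/-, and -0.89 and 0.65 for the genotype ratio at GV. How many genes have a ratio of MII to GV beyond the distance was not counted. Nothing particular to a member is therefore read from passing it. The MII to GV ratios of Dcp1a (1.89 in the libraries labelled Erk-/- and 3.27 in WT) and Pan2 (1.81 and 2.45) exceed that distance in both genotypes, and those of Edc4 do not. Pan3 and Parn belong to genes of lower expression, where the distance is 2.997, and their ratios fall within it. After scaling by the median of gene ratios the distances were 1.66 for the abundant genes and 2.89 for those of lower expression, and the WT ratios of Edc4 (1.86) and Pan3 (3.52) then lay beyond them.

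**Figure D3:**
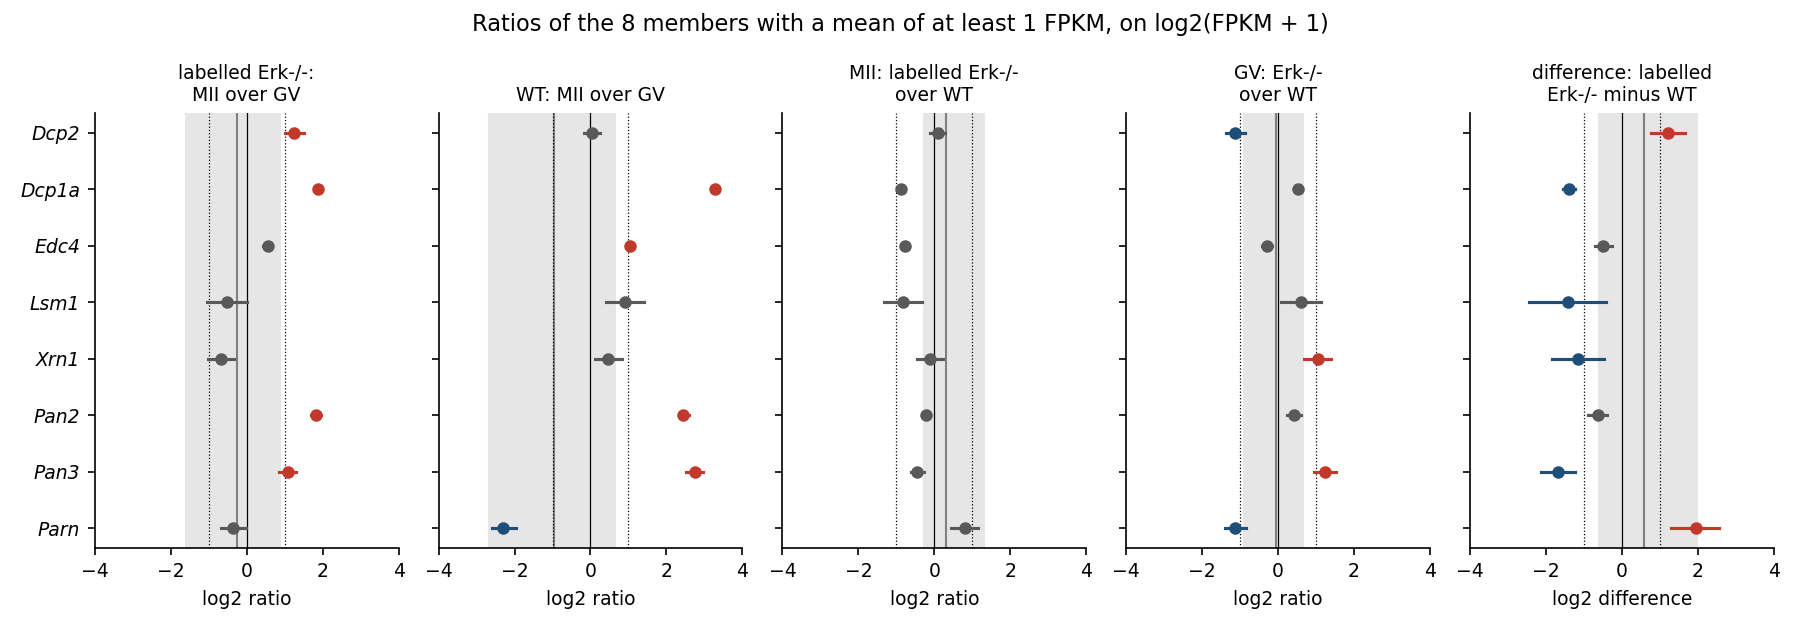
log2 ratios on log2(FPKM + 1) of the 8 members with a mean of at least 1 FPKM, 1 panel per comparison and the difference of maturation ratios at the right, with the range allowed by the authors' bounds as horizontal bars. Grey bands and lines give the quartile range and median of all 9990 genes, dotted lines mark 2-fold, and points past it are coloured; at MII no member passes 2-fold between the genotypes.

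Between the genotypes at MII, no member was 2-fold apart in either direction, where 31.4% of all genes were higher and 7.43% lower in the library labelled Erk-/-. Values of 6 of 8 members were below WT, as were those of 34.4% of all genes, with a member median log2 ratio of -0.33 against 0.31 over all genes. The lowest were Dcp1a (-0.87), Lsm1 (-0.82) and Edc4 (-0.78), with bounds apart in each, and these 3 passed 2-fold lower when the libraries were scaled by the median of gene ratios (-1.40, -1.29 and -1.31), as did 17.1% of all genes. Pan3 (-0.45) and Pan2 (-0.22) were also below WT, with bounds apart. Parn stood higher in the library labelled Erk-/- (0.81), and the bounds of Dcp2 (0.09, which scaling turned to -0.39) and Xrn1 (-0.11) overlapped.

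At GV, 2 of 8 members were higher in Erk-/- than in WT (Pan3, log2 ratio 1.23, and Xrn1, 1.04) and 2 lower (Parn, -1.14, and Dcp2, -1.13). Over all genes 18.4% were higher and 22.9% lower. Dcp1a (0.51), Pan2 (0.41) and Lsm1 (0.61) were above WT and Edc4 (-0.29) below it, all within 2-fold. Those 4 members past 2-fold have means under 32.5 FPKM, and their distances lie within those of 95% of genes of like expression.

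The difference of maturation ratios, labelled Erk-/- minus WT, was at least 2-fold negative in 4 of 8 members and at least 2-fold positive in 2. Over all genes 18.8% were negative and 41.2% positive, and the median was -0.89 in the members and 0.59 over all genes. It was negative for Pan3 (-1.68), Lsm1 (-1.43), Dcp1a (-1.38) and Xrn1 (-1.15), and positive for Parn (1.95) and Dcp2 (1.22). Under median-of-ratios scaling, which moved the median of all genes by -0.49, 6 of 8 were negative and 1 positive, beside 26.6% and 32.7% of all genes. Pan2 (-1.25) and Edc4 (-1.11) then joined the negative ones, and Dcp2 (0.62) no longer passed 2-fold. The ratios of MII to GV share their GV libraries with the genotype ratio at GV. Erk-/- GV levels of Pan3, Xrn1, Lsm1, Dcp1a and Pan2 (above WT) and of Parn, Dcp2 and Edc4 (below WT) thus enter this difference directly.

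Summed over the 10 genes, the members took 0.201% of summed FPKM in the MII library labelled Erk-/- and 0.342% in WT MII, against 0.0708% in Erk-/- GV and 0.0604% in WT GV. Dcp1a made up 61.5% of the members' sum in the MII library labelled Erk-/- and 68.4% in WT MII, against 46.2% in Erk-/- GV and 35.1% in WT GV. The order of the members was led by Dcp1a in each library, with Edc4 and Pan2 next except in WT GV, where Parn stood above Pan2. Neighbours in that order whose bounds overlap were Edc4 and Pan2, Dcp2 and Lsm1, and Lsm1 and Parn in WT MII. In the MII library labelled Erk-/- they were Lsm1 and Xrn1, in Erk-/- GV Parn and Pan3 as well as Lsm1 and Xrn1, and in WT GV Dcp2 and Pan3.

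**Figure D4:**
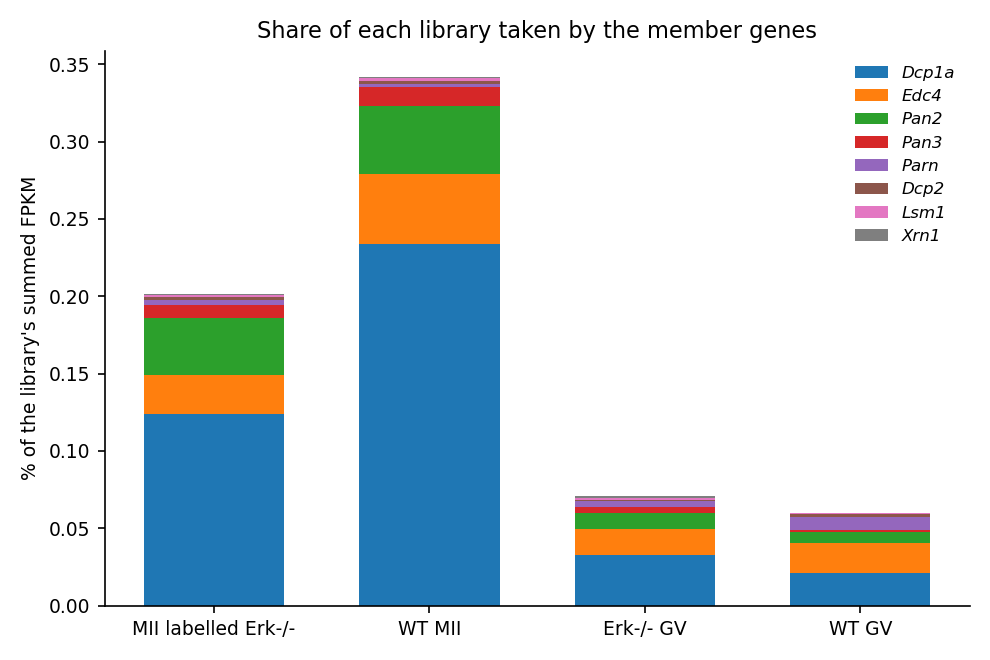
Share of each library's summed FPKM, in percent, taken by each of the 8 members above 1 FPKM on average, stacked from 0. The members together take 0.201% in MII labelled Erk-/- and 0.342% in WT MII, against 0.0708% in Erk-/- GV and 0.0604% in WT GV, and Dcp1a is the largest part in each.

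The genes whose profile over the 4 libraries was most like that of Dcp1a were Taldo1, Ccdc14 and Ino80. Their root mean square differences in centred log2(FPKM + 1) were 0.06, 0.09 and 0.10, among 4801 genes listed once, above 0 in all 4 libraries and with a mean of at least 10 FPKM. Taldo1 had 78.6 FPKM in the MII library labelled Erk-/- and 143 FPKM in WT MII, against 18.3 FPKM in Erk-/- GV and 13.7 FPKM in WT GV. For Parn they were Rab22a, Mrpl40 and Nthl1, at 0.07, 0.11 and 0.11. With 4 values per gene close matches are common, and 34 genes lay within 0.25 of Dcp1a and 53 within 0.25 of Parn. Among the members, Pan2 was closest to Dcp1a at 0.32, with 76 genes closer.

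Other genes of the same decay steps, and relatives of such genes, were set beside the members. Of 8 genes for the rest of the LSm ring and its Pat1 partners, 2 were higher at MII and 1 lower in the libraries labelled Erk-/-, and in WT 2 were higher and 5 lower. The shares over all genes given above (22.9% higher and 35.6% lower in the libraries labelled Erk-/-, and 20.6% higher and 49.6% lower in WT) apply to this and the next 3 lists, and nothing particular to a list is read from these counts. Lsm2 had 68.5 FPKM in the MII library labelled Erk-/- and 20.4 FPKM in WT MII, against 92.5 FPKM in Erk-/- GV and 129 FPKM in WT GV. Lsm6 had 25.1 and 3.07 FPKM in the same MII libraries, against 35.7 FPKM in Erk-/- GV and 17.0 FPKM in WT GV. The ring genes did not move together in WT. Lsm2, Lsm6, Lsm4 (log2 -1.48) and Lsm3 (-1.26) were lower at MII, Lsm7 was within 2-fold (-0.66), and Lsm5 was higher (1.51), with 168 FPKM in WT MII against 58.3 FPKM in WT GV. These genes also serve the nuclear LSm2-8 ring of splicing. Patl2, the oocyte Pat1 protein gene, was lower at MII in both genotypes, with log2 ratios of -2.36 in the libraries labelled Erk-/- and -3.30 in WT. Patl1, the other Pat1 gene, was higher at MII in both, with 1.15 in the libraries labelled Erk-/- and 1.42 in WT.

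Of 9 partners found in P-bodies, the granules where decapping factors gather, 7 had a mean of at least 1 FPKM. At MII, 2 of 7 were higher and 2 lower in the libraries labelled Erk-/-, and in WT 1 was higher and 4 lower, where 49.6% of all genes were lower. Ddx6, the helicase that links deadenylation to decapping, had 2.80 FPKM in the MII library labelled Erk-/- and 0.0151 FPKM in WT MII, against 10.9 FPKM in Erk-/- GV and 9.70 FPKM in WT GV. Eif4enif1, whose protein 4E-T binds the cap-binding factor eIF4E, had 215 FPKM in the MII library labelled Erk-/- and 39.0 FPKM in WT MII, against 339 FPKM in Erk-/- GV and 269 FPKM in WT GV. Both were lowest in WT MII, whereas Lsm14a was highest there (378 FPKM, against 92.3 FPKM in WT GV) and Lsm14b differed little with stage in WT (log2 ratio of -0.01). Pnrc1 was lower at MII in both genotypes (log2 ratios of -4.25 in the libraries labelled Erk-/- and -3.34 in WT).

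Of 5 further cap and 5′-3′ enzymes, 4 were above 1 FPKM on average, with 1 higher and 1 lower at MII in the libraries labelled Erk-/- and 2 higher and 2 lower in WT, where 49.6% of all genes were lower. The lower ones, Nudt3 and Dom3z, were both listed at 0 in WT MII. Xrn2, the nuclear relative of Xrn1, had 66.1 FPKM in the MII library labelled Erk-/- and 81.7 FPKM in WT MII, against 39.1 FPKM in Erk-/- GV and 24.2 FPKM in WT GV. Its level was well above that of Xrn1 in every library. Dcps, the scavenger enzyme for cap remnants, had 7.85 FPKM in the MII library labelled Erk-/- and 26.7 FPKM in WT MII, against 2.06 FPKM in Erk-/- GV and 6.40 FPKM in WT GV. Dom3z, now called Dxo and coding for a decapping exonuclease for faulty caps, had 3.68 FPKM in the MII library labelled Erk-/- and was listed at 0 in WT MII, against 27.9 FPKM in Erk-/- GV and 26.3 FPKM in WT GV.

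The last list held 6 further genes for deadenylases outside CCR4-NOT or for relatives of deadenylases. At MII, 2 were higher and 1 lower in the libraries labelled Erk-/-. In WT 2 were higher and 3 lower, where 49.6% of all genes were lower. The higher ones in both genotypes were Ccrn4l and Angel2, and whether their proteins shorten tails was not tested. Ccrn4l, now called Noct and related to the CCR4 enzymes, had 221 FPKM in the MII library labelled Erk-/- and 252 FPKM in WT MII, against 64.9 FPKM in Erk-/- GV and 58.2 FPKM in WT GV. Angel2, another relative of CCR4, was higher at MII in both genotypes, with log2 ratios of 1.41 in the libraries labelled Erk-/- and 1.43 in WT. Pnldc1, a relative of Parn, had 3.98 FPKM in the MII library labelled Erk-/- and was listed at 0 in WT MII, against 20.5 FPKM in Erk-/- GV and 2.57 FPKM in WT GV. The remaining 3 gave WT log2 ratios of -2.64 (Toe1), -1.44 (Pde12) and -0.14 (Angel1), and in the libraries labelled Erk-/- 0.80, 0.31 and 0.24. Toe1 and Pde12 stayed under 10 FPKM in every library, and Toe1 was listed at 0 in WT MII and Erk-/- GV.

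**Figure D5:**
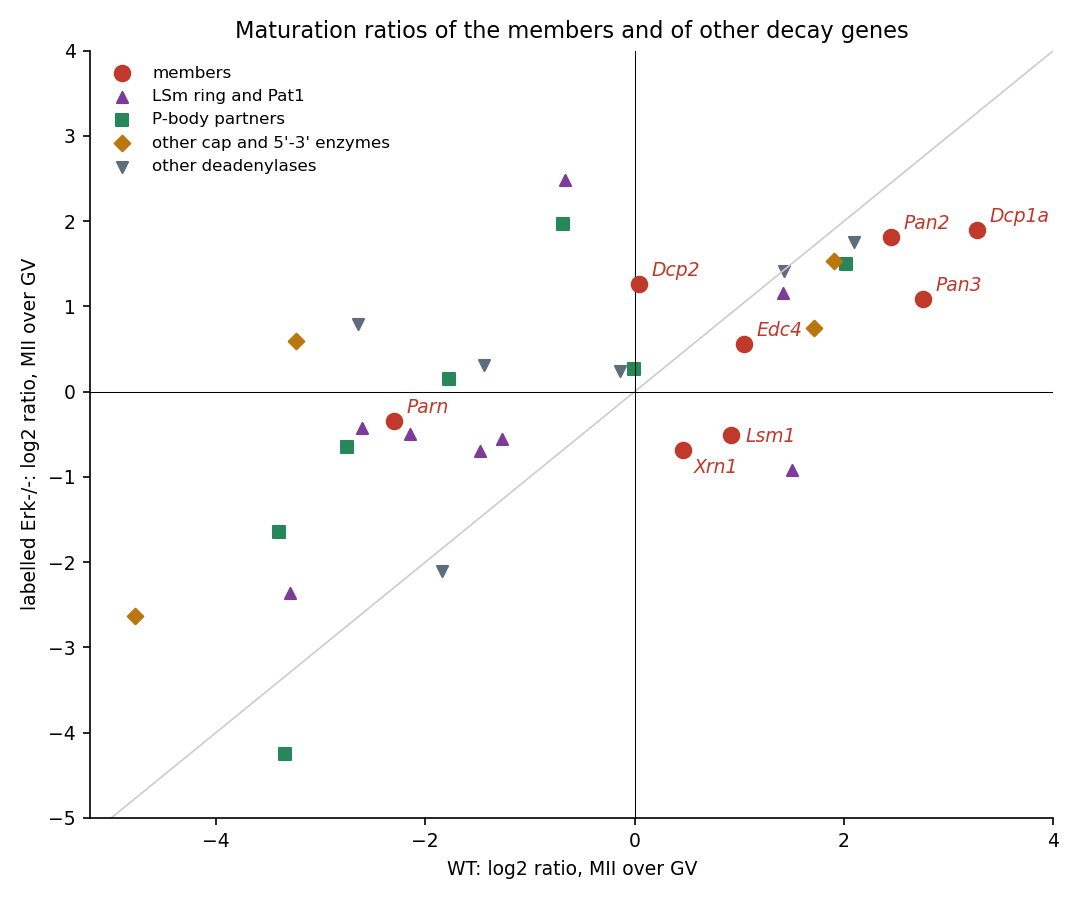
log2 ratio of MII to GV in WT (horizontal axis) and in the libraries labelled Erk-/- (vertical axis) for the 8 members (circles, named). Other symbols are other genes of decapping, P-bodies and deadenylation and their relatives, and the diagonal is the line of equal ratios. Dcp1a, Pan2, Pan3 and Edc4 lie at the upper right and below the diagonal, Parn lies left of 0 and above the diagonal, and Lsm1 and Xrn1 lie on opposite sides of 0 in the 2 genotypes.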

How the data were processed

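The authors deposited FPKM with a lower and an upper bound for each gene, per the file headers. CASAVA 1.8, TopHat and mouse build mm9 are named, per the submitters' processing notes. The program that computed FPKM, its annotation, the confidence level of the bounds and any selection by poly(A) tail were not found in the labels or headers and are not stated here. Groups were taken from sample titles. Rows were summed per symbol (260 of 23309 symbols had several rows), and the members had 1 row each. Ratios used a pseudocount of 1 FPKM over 9990 genes whose mean in the 4 libraries reached 1 FPKM, and folds of single genes are ratios of FPKM. Calls are a rule of 2-fold size, since 1 library per group allows no test. The arithmetic was checked on simulated data. Alternatives were a pseudocount of 0.1, no filter, a mean of at least 10 FPKM, median-of-ratios scaling over genes above 0 in all libraries, and leaving out genes listed at 0. Locus starts count from 0 (gene length equals end minus start in 9170 of 21279 genes, and end minus start plus 1 in 558), so printed starts are the files' starts plus 1. The 3′ UTRs were read from GENCODE M21 (GRCm38), preferring the principal transcript, then the longest coding sequence, and no coordinates were converted. Named genes were all members, up to 3 genes per neighbouring list with the largest absolute WT log2 ratio of MII to GV among genes reaching 10 FPKM in a library, and the 3 most alike for Dcp1a and Parn. Lsm3, Lsm4, Lsm5, Lsm7, Patl1, Lsm14a, Lsm14b, Nudt3, Toe1, Pde12 and Angel1 were named outside this rule, after their values were seen, to add to the account of their lists. Members and lists were chosen with earlier results of these data known. Python 3.11.15, pandas 2.3.3, numpy 2.4.6 and matplotlib 3.10.9 were used.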

Additional observations from a re-analysis of the deposited data

Results flagged for a closer look

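In 5 cases the 2 ratios set side by side pointed in opposite directions, with the authors' bounds apart in each ratio and at least 2-fold between them. Their differences are the differences of maturation ratios given above, so they are not further results. The share of all genes meeting the same rule was not counted. Of all 9990 genes, 41.2% had a difference of maturation ratios at least 2-fold positive and 18.8% at least 2-fold negative. Nothing particular to the members is therefore read from the 5 cases. None of these differences was tested, since each group is 1 library, and the part of the library labelled Erk-/- at MII, in which Mapk3 was not lower, was not tested.

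For the genotype ratio (labelled Erk-/- over WT), MII minus GV was -1.38 log2 units for Dcp1a (-0.87 at MII and 0.51 at GV). It was -1.43 for Lsm1 (-0.82 at MII and 0.61 at GV) and -1.68 for Pan3 (-0.45 at MII and 1.23 at GV). For Parn it was 1.95, with 0.81 at MII and -1.14 at GV. For the maturation ratio (MII over GV), labelled Erk-/- minus WT was -1.15 for Xrn1, with -0.68 in the libraries labelled Erk-/- and 0.46 in WT. Xrn1 stayed under 5 FPKM throughout.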

How the results depend on the processing

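No paired analysis was possible because each group has 1 library. Removing the filter, raising it to 10 FPKM or leaving out genes listed at 0 changes only which genes are kept and cannot move a ratio. All 40 member ratios recomputed with a pseudocount of 0.1 FPKM moved by less than the authors' bounds allow. Under median-of-ratios scaling 17 of 40 did so and 23 moved by more, and 1 changed sign (Dcp2 at MII, within 2-fold). Under it the median over all genes shifted by 0.67 for WT maturation, 0.18 for maturation in the libraries labelled Erk-/-, -0.31 at MII and 0.06 at GV. Among all genes past 2-fold, the share higher was 42.3% for WT maturation (29.3% as deposited), 59.1% at MII (80.9%) and 55.2% positive for the difference of maturation ratios (68.7%). For the members it gave 6 higher and 1 lower in WT maturation, 3 lower at MII where none was before, and 1 positive and 6 negative differences. At a mean of at least 10 FPKM, 5 members remained, with 1 higher and 1 lower at GV and 1 positive and 2 negative differences, because fewer members were counted. A pseudocount of 0.1 FPKM added Lsm1 to the members higher in WT MII (5 of 8). Removing the filter or the genes listed at 0 changed no count of members. Depth is unknown, and single-library levels under 5 FPKM carry bounds of up to 23.7% of the value on either side for Lsm1 and 35.1% for Edc3.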
